A study of Mus musculus with 3 samples.

Results

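The Trbc1-dominant area is the part of 1 *Trp53*-/- (KO) thymus section, KO1134, in which transcripts of the T cell receptor constant gene *Trbc1* outnumbered those of its neighbour *Trbc2*. Unique molecular identifiers (UMIs, each standing for 1 captured transcript) were summed in squares of 27 µm, and a bin was kept if it had 300 or more genes and no more than 30% of its UMIs came from mitochondrial genes. A bin belonged to the area when the 7 × 7 bins around it held at least 1.25 times as many *Trbc1* as *Trbc2* UMIs and at least 30 UMIs of both. The area had 6890 of the 12044 kept bins of KO1134, out of 56744 kept bins in the 3 sections. It was set beside the 1866 low-ratio bins of the same section (window ratio below 0.8), beside the 15016 bins of KO1308, a second KO section, and beside the 27146 bins of WT1101, a WT section, that had at least 30 UMIs of both genes in their window. All sections were thymus of female C57BL/6 mice. KO1134 was *Trp53*-/- at 17 weeks, KO1308 was *Trp53*-/- at 21 weeks, and WT1101 was *Trp53*+/+ at 17 weeks, as their labels give it. A listing of mice by the study gives WT1101 as somewhat older. The paper describes perfusion with saline under pentobarbital for the mice of its single-cell assays. Its section on spatial transcriptomics does not mention it. The KO sections were permeabilised slightly longer than the WT section. The KO allele was inherited and not deleted by a Cre, and each combination of genotype and age was represented by 1 section. There was therefore no replicate, no test was made, and bracketed 95% intervals are exact and cover counting error only.

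Developing T cells rearrange the β chain gene before the α chain gene, and the β locus carries a pair of clusters, each with its own D and J segments and its own constant gene. A rearrangement into the first cluster is transcribed with *Trbc1* and one into the second with *Trbc2*, so that a polyclonal thymus contains both. Thymocytes pass through a CD4 and CD8 double-negative stage, in which *Il2ra* and *Kit* are expressed and γδ T cells branch off, and a double-positive stage in the cortex, in which the α chain is rearranged, before maturing in the medulla. Mice without p53 are known for thymic T cell lymphoma.

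*Trbc1* (ENSMUSG00000076490) lies on the plus strand of chromosome 6 of GRCm38 from 41538218 to 41539881, and *Trbc2* (ENSMUSG00000076498) starts 6848 bases after its end and spans 41546730 to 41548352. The transcripts of the annotation (GENCODE M21) differed at 1 of their first 360 bases and at 18 of the next 140, which are coding. Those 140 bases are shown because they hold 18 of the 19 differences in the first 500 bases, by which reads of the genes can be told apart. The transcripts have 737 (*Trbc1*) and 692 (*Trbc2*) bases, and those after the first 500 were not compared. Capitals mark the differences.
Trbc1: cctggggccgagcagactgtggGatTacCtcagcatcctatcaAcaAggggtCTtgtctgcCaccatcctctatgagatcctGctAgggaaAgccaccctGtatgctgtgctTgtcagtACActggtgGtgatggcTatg
Trbc2: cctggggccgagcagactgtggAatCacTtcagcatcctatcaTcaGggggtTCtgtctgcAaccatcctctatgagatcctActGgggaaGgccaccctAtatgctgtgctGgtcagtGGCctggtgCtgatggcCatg
Reads from the shared first part cannot be assigned to either gene with certainty, and how such reads were counted is not given in the sources used here.

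The area held 30510 *Trbc1* and 16883 *Trbc2* UMIs, a ratio of 1.81, against 1.01 in the 3096 bins of KO1134 between the limits, 0.60 in low-ratio bins, 0.532 in KO1308 and 0.591 in WT1101. These ratios follow from the rule for the bins of KO1134 and are a description. Levels are given as CPM, the UMIs of a gene per 1000000 UMIs of the set. Because a bin holds several cells, fewer cells of a type and less RNA per cell cannot be told apart in any of them. *Trbc1* was at 1797 CPM in the area, 727 in low-ratio bins, 1124 in KO1308 and 2549 in WT1101. *Trbc2* was at 994 CPM in the area, 1212 in low-ratio bins, 2112 in KO1308 and 4312 in WT1101. The area thus had less of both genes than the WT section, and the difference was larger for *Trbc2*. Of bins with enough UMIs, 58.1% (57.2 to 59) passed the rule in KO1134, 20 of 15016 in KO1308 (0.133%, 0.0814 to 0.206) and 8 of 27146 in WT1101 (0.0295%, 0.0127 to 0.0581). Windows of neighbouring bins overlap, so the bins are not independent and these intervals are too narrow. The few passing bins of the other sections lay in sparse windows, with a median of 41 UMIs of both genes in KO1308 and 80 in WT1101, against 337 in the area. No bin of KO1308 or WT1101 passed when at least 100 UMIs were asked of the window, where 5866 bins of KO1134 did.

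**Figure D1:**
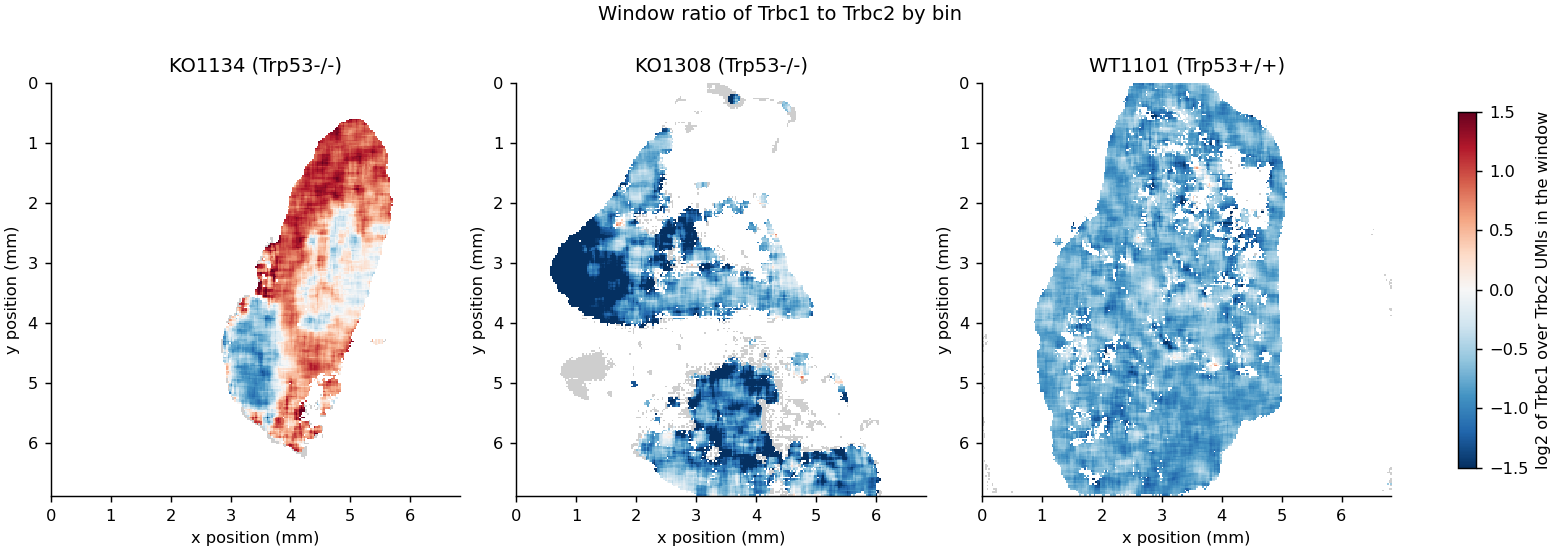
Log2 of *Trbc1* over *Trbc2* UMIs in the 7 × 7 window of each kept bin, by position in mm, for the 3 sections (red, more *Trbc1*; blue, more *Trbc2*; colours end at 1.5 either way; grey, fewer than 30 UMIs of both genes). KO1134 was red over most of its length, with a blue body at its lower left and paler bins within and along the right side, whereas WT1101 was evenly blue and KO1308 blue with dark regions of few *Trbc1* UMIs.

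The window ratio was narrow in WT1101, where 90% of bins lay between 0.473 and 0.743 around a median of 0.59. KO1308 had a median of 0.526 and a tail towards *Trbc2*, with 5% of bins at or below 0.19. KO1134 had a median of 1.41 and spread from 0.582 to 2.28 over the middle 90% of its bins. Within the area the median was 1.76, with 10% of bins at or below 1.37 and 10% at or above 2.25. At the limit, 276 member bins had a ratio from 1.25 to 1.3 and 300 other bins one from 1.2 to 1.25, so the limit cut through a continuous range. The former held 811 *Trbc1* and 719 *Trbc2* UMIs of their own, the latter 868 and 693. In single bins, without their neighbours, 63.2% of the area's bins had more *Trbc1*, 19.7% more *Trbc2* and 6.71% neither gene. When the bin itself was left out of its window, the bins chosen by their neighbours alone had 30314 *Trbc1* and 17078 *Trbc2* UMIs of their own, a ratio of 1.78 (1.74 to 1.81).

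**Figure D2:**
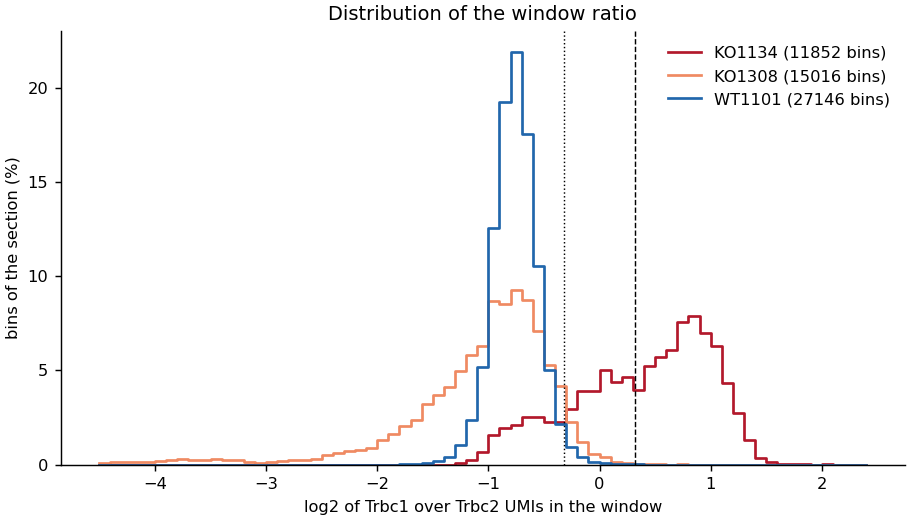
Share of bins of each section (%) by log2 of the window ratio of *Trbc1* to *Trbc2*, for bins with at least 30 UMIs of both genes; the dashed line marks 1.25 and the dotted line 0.8. WT1101 had a single narrow peak below 0, KO1308 a broader one, and KO1134 a wide distribution with its main peak above the dashed line.

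The members formed 34 patches of touching bins and covered 5.02 mm2 of tissue. The largest patch held 6585 bins (95.6%), and 30 of the patches had fewer than 30 bins. Depth was a median of 2536 UMIs and 1610 genes per bin in the area, 3283 UMIs in low-ratio bins, 904 in KO1308 and 1355 in WT1101, from 16982626, 6038105, 16651070 and 40600171 UMIs in all. Mitochondrial genes took 1.47%, 2.15%, 1.23% and 0.807% of UMIs in the same order.

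The label thymus was checked against marker genes. Windows were scored by the UMI share of 6 thymus genes (*Psmb11*, *Prss16*, *Cd8b1*, *Ptcra*, *Themis* and *Arpp21*). This share reached 50% of that of the whole section, most of which is the area itself, in 92.2% of the area's bins. Of its bins 99.7% had more UMIs of 8 cortical than of 8 medullary epithelial markers around them. The 8 cortical epithelial markers summed to 4839.5 CPM in the area, 774 in low-ratio bins, 4361 in KO1308 and 4189.8 in WT1101. *Prss16*, a cortical serine protease, was at 462 CPM in the area, 25.2 in low-ratio bins, 549.6 in KO1308 and 333 in WT1101, and *Psmb11*, the thymoproteasome subunit, at 169 CPM in the area, 12.3 in low-ratio bins, 135 in KO1308 and 112 in WT1101. Cortical epithelial genes were therefore present in the area at levels close to those of the other sections. The 6 thymus genes, which include thymocyte genes, summed to 809 CPM in the area, 333 in low-ratio bins, 1509.5 in KO1308 and 2081 in WT1101. Among them *Cd8b1*, which encodes the CD8 β chain, was at 26.4 CPM in the area, 249 in low-ratio bins, 529.9 in KO1308 and 1117 in WT1101. The low-ratio bins differed in tissue by the same markers. Of these, 75.7% were lymph-node-like (the B cell genes *Ms4a1*, *Cd79b* and *Cd79a* outnumbered the thymus genes in the window), and 36.6% had more cortical than medullary epithelial UMIs. This last measure is a loose one, since the cortical markers are far more abundant and 33.7% of the lymph-node-like low-ratio bins also passed it. In the area 42 bins were lymph-node-like. Each comparison with low-ratio bins therefore sets thymus rich in cortical epithelial genes largely against lymph-node-like tissue. The comparisons with KO1308 and WT1101 set the area against whole thymus sections, cortex and medulla not separated.

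*Trp53* itself was at 14.8 CPM in the area, 23.8 in low-ratio bins, 26.8 in KO1308 and 79.9 in WT1101. The KO sections were below the WT section and not at 0, and which exons the allele lacks is not given in the sources used here. 

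Across all genes with a mean of at least 10 CPM in the pair of sets, 1406 of 10927 (12.9%) were at least 2-fold higher in the area than in low-ratio bins and 597 (5.46%) at least 2-fold lower. Against WT1101 these were 913 (8.28%) and 831 (7.54%) of 11027, and against KO1308 441 (3.8%) and 966 (8.33%) of 11595. The 3 comparisons share the area's bins, so they are not independent of each other. Of 10463 genes compared in all 3, 184 (1.76%) were at least 2-fold higher and 65 (0.621%) at least 2-fold lower in every one. The median log2 ratio over all genes was 0.16 against low-ratio bins, -0.08 against WT1101 and -0.14 against KO1308, which is the background for the list medians that follow. With mitochondrial, ribosomal protein and immunoglobulin genes left out of the total, these medians shifted by -0.10, 0.10 and 0.04.

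Among the other T cell receptor constant genes, those of the γ and δ chains were high in the area. *Tcrg-C1*, *Tcrg-C2* and *Tcrg-C4* encode γ constant regions. *Tcrg-C1* was at 422 CPM (412 to 432; 7163 UMIs) in the area, 26.5 CPM (22.6 to 30.9; 160 UMIs) in low-ratio bins, 82.3 CPM (78 to 86.8; 1370 UMIs) in KO1308 and 48.1 CPM (46 to 50.3; 1953 UMIs) in WT1101. The area was 15.9 (13.6 to 18.7)-fold, 5.13 (4.84 to 5.44)-fold and 8.77 (8.34 to 9.22)-fold above the other sets. *Tcrg-C4* was at 413 CPM in the area, 22.4 in low-ratio bins, 54.3 in KO1308 and 27.7 in WT1101, which is 14.9 times the WT level, and *Tcrg-C2* was 7.0 times it. *Trdc*, the δ constant gene, was at 180.4 CPM in the area, 19.7 in low-ratio bins, 48.5 in KO1308 and 68.4 in WT1101. The γ constant genes share much of their sequence, so reads may have been split between them, and together they were at 1203 CPM in the area, 72.4 in low-ratio bins, 226 in KO1308 and 128 in WT1101. *Trac*, the α constant gene, was at 232 CPM in the area, 564 in low-ratio bins, 295 in KO1308 and 488 in WT1101. *Tcrg-C3*, the sparsest γ constant gene, was at 7.24, 0.331, 2.58 and 0.887 CPM in the same order. All 5 γ and δ constant genes were thus more than 2-fold above low-ratio bins, KO1308 and WT1101, while *Trac* was below each of these. For *Trdc* this rested on the largest patch of the area, since in the 305 bins outside it *Trdc* was at 91 CPM, less than 2-fold above KO1308 and WT1101. The bins of KO1134 between the limits were closer to the area. Without lymph-node-like bins they had *Tcrg-C1* at 267, *Tcrg-C2* at 254, *Tcrg-C4* at 305 and *Trdc* at 104 CPM, each less than 2-fold below it. With lymph-node-like bins left out, the low-ratio level of *Tcrg-C1* was 63.1 CPM, and the log2 ratio of the area to low-ratio bins was 2.75 in place of 3.99. Thinned to 500 UMIs, 17% of the area's bins still had a *Tcrg-C1* UMI, against 2.37% of low-ratio bins, 4.0% in KO1308 and 1.96% in WT1101, and 53.4%, 7.02%, 8.01% and 6.18% had one at full depth. Thinning left out 99, 9, 2522 and 2819 shallower bins. The γ variable segments gave 33 UMIs in the area, 18 of *Trgv2* and 12 of *Tcrg-V1*, and 4 each in KO1308 and WT1101. The δ variable segments gave 104, 12, 92 and 283 UMIs, or 6.12, 1.99, 5.53 and 6.97 CPM, so that the area was not above WT1101.

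Segments of the β and α chains were sparse. They lie at the far end of the transcript from the poly(A) tail by which it is captured. The rule did not count them, but a J segment of the first cluster is transcribed with *Trbc1*, so the J segments of the area are tied to its choice and are a description. Among J segments of the β chain, *Trbj1-4* stood out in the area with 16 of 20 (80%, 56.3 to 94.3) UMIs, and the other 4 UMIs belonged to segments of the second cluster. In WT1101 it had 17 of 130 (13.1%, 7.81 to 20.1) UMIs, where *Trbj2-1* led with 32 of 130 (24.6%, 17.5 to 32.9). In KO1308 it had 4 of 53 (7.55%, 2.09 to 18.2) UMIs and in low-ratio bins 1 of 3 (33.3%, 0.84 to 90.6). The 16 *Trbj1-4* UMIs of the area came from 16 different bins spread over 4590 µm of the section's length. *Trbj1-4* (ENSMUSG00000076486, plus strand) occupies positions 41534811 to 41534861 of chromosome 6 in GRCm38. It belongs to the first cluster and lies 3356 bases before *Trbc1*. Its germline sequence in the annotation is shown because it led the area's J segments, with its copy of the Phe-Gly-X-Gly motif of J segments in capitals, the last base of the motif left out.
Trbj1-4: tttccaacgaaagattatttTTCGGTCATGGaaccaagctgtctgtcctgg
All joining segments of the first cluster together had 16 of 20 (80%, 56.3 to 94.3) UMIs in the area, 31 of 53 (58.5%, 44.1 to 71.9) in KO1308 and 63 of 130 (48.5%, 39.6 to 57.4) in WT1101. Among V segments of the β chain, *Trbv12-2* led with 24 of 59 (40.7%, 28.1 to 54.3) UMIs in the area, 19 of 72 (26.4%, 16.7 to 38.1) in KO1308, 101 of 310 (32.6%, 27.4 to 38.1) in WT1101 and 12 of 25 (48%, 27.8 to 68.7) in low-ratio bins, with overlapping intervals. *Trbv13-2* followed with 13 of 59 (22%, 12.3 to 34.7) UMIs in the area, 3 of 25 (12%, 2.55 to 31.2) in low-ratio bins, 4 of 72 (5.56%, 1.53 to 13.6) in KO1308 and 24 of 310 (7.74%, 5.02 to 11.3) in WT1101. Its interval in the area did not overlap that in WT1101, but overlapped those in KO1308 and low-ratio bins. Among V segments of the α chain, *Trav6d-7* led the area with 218 of 536 (40.7%, 36.5 to 45) UMIs. It had 26 of 278 (9.35%, 6.2 to 13.4) in KO1308, 263 of 1188 (22.1%, 19.8 to 24.6) in WT1101 and 6 of 163 (3.68%, 1.36 to 7.84) in low-ratio bins. It has near copies, *Trav6n-7* and *Trav6-7-dv9*, between which reads may have been split. The 3 together had 327 of 536 (61%, 56.7 to 65.2) UMIs in the area, 81 of 278 (29.1%, 23.9 to 34.9) in KO1308 and 342 of 1188 (28.8%, 26.2 to 31.5) in WT1101.

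Several genes of early, double-negative thymocytes were high. *Il2ra*, the interleukin-2 receptor α chain, was at 159.6 CPM in the area, 30.0 in low-ratio bins, 60.7 in KO1308 and 31.9 in WT1101. *Kit*, the stem cell factor receptor, was at 56.6 CPM in the area, 11.6 in low-ratio bins, 22.8 in KO1308 and 4.9 in WT1101. *Hes1*, a Notch target, was at 84.5 CPM in the area, 23.2 in low-ratio bins, 58.6 in KO1308 and 17.7 in WT1101, and *Lyl1*, an early lymphoid factor, at 29.7 CPM in the area, 10.9 in low-ratio bins, 5.41 in KO1308 and 1.28 in WT1101. In the bins of KO1134 between the limits, without lymph-node-like bins, *Il2ra* was at 118, *Kit* at 44.6, *Hes1* at 80.8 and *Lyl1* at 20.2 CPM. The level of *Hes1* was thus close to that of the area. Among the area, low-ratio bins, KO1308 and WT1101, all 4 were highest in the area. *Notch1* was not, at 38.2 CPM in the area, 16.4 in low-ratio bins, 56 in KO1308 and 40.5 in WT1101, nor was *Ptcra*, which pairs with the first β chain and was at 3.53 CPM in the area, 0.331 in low-ratio bins, 8.05 in KO1308 and 15.6 in WT1101. Of the early thymocyte list, the area had 5 of 9 compared genes at least 2-fold higher and 0 lower (median log2 ratio 2.25) against WT1101, 4 of 10 compared genes at least 2-fold higher and 1 lower (median log2 ratio 0.31) against KO1308 and 6 of 10 compared genes at least 2-fold higher and 2 lower (median log2 ratio 1.33) against low-ratio bins.

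Double-positive genes were low beside the other sections. *Cd8a* was at 66.7 CPM in the area, 279.7 in low-ratio bins, 657 in KO1308 and 1825 in WT1101, 0.0365 (0.0344 to 0.0387) times the WT level. *Cd4* was at 28.7 CPM in the area, 74.5 in low-ratio bins, 219 in KO1308 and 252 in WT1101. *Rag1*, which with *Rag2* cuts the receptor genes, was at 43.7 CPM in the area, 2.32 in low-ratio bins, 306 in KO1308 and 652 in WT1101, and *Rag2* at 1.83, 0.166, 35.1 and 95.4 CPM in the same order. *Satb1*, a chromatin organiser of thymocytes, was at 199 CPM in the area, 514 in low-ratio bins, 1141 in KO1308 and 3457 in WT1101. *Dntt*, which adds bases at the joints, was closer to KO1308, at 531 CPM in the area, 36.9 in low-ratio bins, 593 in KO1308 and 1119 in WT1101. Against WT1101 the double-positive list had 0 of 14 compared genes at least 2-fold higher and 11 lower (median log2 ratio -2.46), and against KO1308 0 of 14 compared genes at least 2-fold higher and 8 lower (median log2 ratio -1.81). Against low-ratio bins, which were poor in cortical epithelial genes, it had 6 of 12 compared genes at least 2-fold higher and 4 lower (median log2 ratio 0.86). Thinned to 500 UMIs, 3.0% of the area's bins had a *Cd8a* UMI, against 12%, 25.8% and 56.3% in low-ratio bins, KO1308 and WT1101. At full depth the shares were 12.8%, 48.2%, 40.9% and 78.8%.

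**Figure D3:**
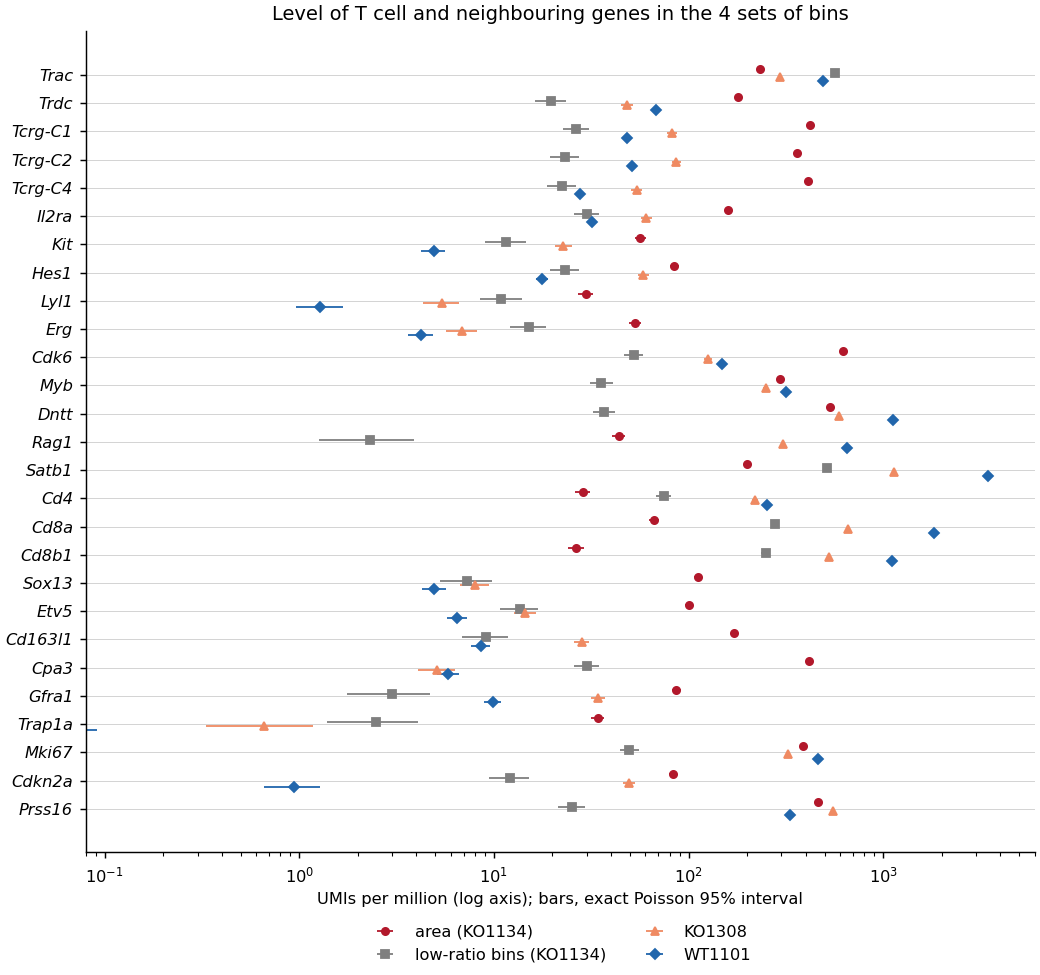
Level of 27 genes in CPM (log axis) in the area (circles), low-ratio bins (squares), KO1308 (triangles) and WT1101 (diamonds), with exact Poisson 95% intervals; *Trap1a* had 0 UMIs in WT1101 and only its upper limit shows. The γ and δ constant genes and *Il2ra* to *Cdk6* were highest in the area, and *Rag1*, *Satb1*, *Cd4*, *Cd8a* and *Cd8b1* were far below KO1308 and WT1101.

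Genes of mature T cells were lower than in low-ratio bins and, by their median, near WT1101. *Ccr7*, a homing receptor of the medulla and lymph node, was at 25.4 CPM in the area, 234 in low-ratio bins, 51.8 in KO1308 and 41 in WT1101, and *S1pr1*, which guides egress, at 17.7 CPM in the area, 339 in low-ratio bins, 29.7 in KO1308 and 17.7 in WT1101. *Il7r*, the interleukin-7 receptor, was higher than in both other sections, at 302 CPM in the area, 519 in low-ratio bins, 150.4 in KO1308 and 87.9 in WT1101. The mature T list had 1 of 10 compared genes at least 2-fold higher and 6 lower (median log2 ratio -1.06) against low-ratio bins and 3 of 10 compared genes at least 2-fold higher and 1 lower (median log2 ratio 0.14) against WT1101. The CD3 and proximal signalling list had 0 of 11 compared genes at least 2-fold higher and 7 lower (median log2 ratio -1.10) against WT1101 and 0 of 11 compared genes at least 2-fold higher and 1 lower (median log2 ratio -0.69) against KO1308, with *Cd3e* at 151, 133, 265 and 307 CPM and the kinase gene *Lck* at 263, 264, 599.7 and 876 CPM in the area, low-ratio bins, KO1308 and WT1101. Among T lineage factors, *Tcf7* was at 323, 177, 405 and 757 CPM, *Bcl11b* at 262, 209, 393 and 726 CPM and *Lef1* at 49.1, 228, 189 and 208 CPM in that order, each lower in the area than in KO1308 and WT1101. *Gata3* was higher in the area, at 146, 44.2, 79.7 and 95.1 CPM, as was *Runx3*, at 78.3, 42.4, 29.5 and 11.5 CPM. The list of T lineage factors had 1 of 12 compared genes at least 2-fold higher and 4 lower (median log2 ratio -0.50) against WT1101 and 2 of 12 compared genes at least 2-fold higher and 3 lower (median log2 ratio -0.28) against KO1308.

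Of genes tied to T cell leukaemia, *Cdk6*, the G1 kinase of cyclin D, was at 622 CPM in the area, 52.2 in low-ratio bins, 126 in KO1308 and 149 in WT1101, 4.94 (4.72 to 5.18) times the level of KO1308 and 4.17 (4.04 to 4.31) times that of WT1101. In the bins outside the largest patch it was at 354 CPM. *Erg*, an ETS factor, was at 53.1 CPM in the area, 15.1 in low-ratio bins, 6.85 in KO1308 and 4.21 in WT1101. *Myc* was at 78.8 CPM in the area, 39.1 in low-ratio bins, 146 in KO1308 and 40.4 in WT1101, above WT1101 and below KO1308. *Tlx1*, *Tlx3* and *Hoxa9* had at most 7 UMIs in any set, and *Lmo1* and *Tal1* were below 5 CPM in all sets. The list had 4 of 11 compared genes at least 2-fold higher and 1 lower (median log2 ratio 0.57) against WT1101, 3 of 13 compared genes at least 2-fold higher and 2 lower (median log2 ratio -0.55) against KO1308 and 5 of 13 compared genes at least 2-fold higher and 2 lower (median log2 ratio 0.53) against low-ratio bins.

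Genes of mitosis and replication were above low-ratio bins, and most were below the other sections. The 24 genes of the list summed to 3500.2 CPM in the area, 884 in low-ratio bins, 4074 in KO1308 and 5071 in WT1101. Against low-ratio bins 23 of 24 were at least 2-fold higher, with *Mcm4* the exception at 1.49-fold. In medulla-rich windows, where the area had 23 bins, this count was 11. In the area 6 of the 24 were above KO1308 and 2 above WT1101. None was at least 2-fold higher than in WT1101 or KO1308, and 4 and 1 were at least 2-fold lower. *Mki67*, a marker of cycling cells, was at 386 CPM in the area, 49.7 in low-ratio bins, 324 in KO1308 and 463 in WT1101, and *Rrm2*, a ribonucleotide reductase subunit, at 142 CPM in the area, 26 in low-ratio bins, 336 in KO1308 and 372 in WT1101. Among cell-cycle inhibitors, *Cdkn2a*, which encodes p16 and p19ARF, was at 83.3 CPM in the area, 12.1 in low-ratio bins, 49.6 in KO1308 and 0.936 in WT1101. *Cdkn1b* and *Cdkn2d* were low, at 41.5, 82.3, 102 and 120.0 CPM and 63, 72.5, 112 and 215 CPM in the order area, low-ratio bins, KO1308 and WT1101. The inhibitor list had 3 of 5 compared genes at least 2-fold higher and 0 lower (median log2 ratio 1.05) against low-ratio bins, 0 of 5 compared genes at least 2-fold higher and 1 lower (median log2 ratio 0.03) against KO1308 and 1 of 5 compared genes at least 2-fold higher and 2 lower (median log2 ratio -0.52) against WT1101. The p53 target list had 0 of 13 compared genes at least 2-fold higher and 6 lower (median log2 ratio -0.83) against WT1101. Of its genes, *Btg2* was at 72.4 CPM in the area, 128 in low-ratio bins, 158 in KO1308 and 362 in WT1101 and *Trp53inp1* at 81.8 CPM in the area, 73.7 in low-ratio bins, 207 in KO1308 and 372 in WT1101. Against KO1308, which lacks p53 too, it had 0 of 14 compared genes at least 2-fold higher and 3 lower (median log2 ratio -0.15).

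The genes that most set the area apart from low-ratio bins, KO1308 and WT1101 were of several kinds. The order of values in what follows is the area, low-ratio bins, KO1308 and WT1101. *Sox13*, a factor of γδ T cell development, was at 112, 7.29, 7.99 and 4.93 CPM, and the area was 15.4 (11.4 to 21.2)-fold, 14 (11.8 to 16.8)-fold and 22.7 (19.6 to 26.4)-fold higher. *Cpa3*, a protease gene of mast cells and of some progenitors, was at 414, 30.1, 5.1 and 5.81 CPM. *Nfe2*, an erythroid and megakaryocyte factor, was at 47.9, 3.81, 1.92 and 2.14 CPM, and *Slc7a8*, an amino acid transporter, at 98.1, 7.45, 7.87 and 6.58 CPM. *Trap1a*, the X-linked gene of the tumour antigen P1A, was at 34.1, 2.48, 0.661 and 0 CPM (579, 15, 11 and 0 UMIs). It overlaps *Platr21* on the opposite strand, which was at 34.3, 1.16, 0.661 and 0.32 CPM, and reads of the pair cannot be told apart without strand. Against the floor of 3 UMIs in WT1101 the ratio of *Trap1a* was 461, and by the lower end of its exact interval it was at least 374-fold higher in the area. *Lalba*, a milk protein gene, was at 23.5, 0.828, 2.04 and 0.246 CPM. *Il20ra*, an interleukin receptor chain, was at 20.2, 1.16, 0.901 and 0.591 CPM, and the X-linked zinc finger gene *Zfp711* at 32.4, 2.15, 0.721 and 0.911 CPM. *Trnp1* was at 21.5, 2.32, 2.04 and 1.38 CPM and *Cwh43* at 30.0, 3.15, 3.3 and 1.48 CPM. *Myh4*, a fast myosin of skeletal muscle, also met the rule, at 33.9, 2.82, 1.08 and 0.222 CPM. It was unevenly spread. The lowermost of 4 parts of the area by length held 563 of its 575 UMIs, at 162 CPM, and in a patch of 28 members it was at 3221 CPM. In the upper 2 parts it was at 0.204 and 0.871 CPM. The bins of KO1134 between the limits were not among the 3 sets compared. Without lymph-node-like bins they had *Sox13* at 78.8, *Cpa3* at 285, *Lalba* at 16.8 and *Trap1a* at 10.8 CPM. For *Sox13* and *Cpa3* they were thus closer to the area than to those sets.

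Against low-ratio bins alone, the largest ratios also belonged to *Gfra1*, a receptor chain for glial-derived neurotrophic factor, at 86.7, 2.98, 34.1 and 9.88 CPM, to *Lhfpl3*, at 23.8, 1.16, 3.9 and 1.31 CPM, and to *Cd163l1*, a scavenger receptor gene of γδ T cells, at 171, 9.11, 28.3 and 8.55 CPM. They included the cortical genes *Prss16*, *Rag1* and *Arpp21*, with *Aqp11* at 208, 11.4, 146 and 348 CPM and *Snhg11* at 58, 3.15, 71.8 and 31.1 CPM, which were not higher than in both other sections. Chosen after their values were seen, *5830411N06Rik*, a scavenger receptor relative next to *Cd163l1*, was at 656, 47.7, 28.8 and 17.7 CPM and *Etv5*, an ETS factor of γδ T cells, at 101, 13.6, 14.5 and 6.48 CPM. Between the limits, without lymph-node-like bins, *5830411N06Rik* was at 467, *Etv5* at 62.7 and *Cd163l1* at 134.5 CPM. *Blk*, a kinase of B and γδ T cells, was at 47.4, 31.5, 17.5 and 4.11 CPM, *Maf* at 110.0, 77.2, 68.3 and 40.6 CPM and *Sox4* at 41.4, 5.47, 48.5 and 56.5 CPM. *Il23r*, of interleukin-17-producing γδ T cells, was below 2 CPM in all 4 sets, at 1.65, 0.828, 1.38 and 1.9 CPM.

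The genes lowest in the area against all 3 sets were led by *Slc6a19*, an amino acid transporter, at 2.24, 29, 34.3 and 108 CPM, by *Cd8b1*, and by *Nsg2*, at 23.8, 166, 333 and 765 CPM, and included *Cd8a*. *Kcnh6*, a potassium channel, was at 7.18, 43.9, 118 and 169.7 CPM. *Trib2*, a pseudokinase, was at 17.4, 190.0, 68.5 and 160.5 CPM, *Slamf6*, a receptor of lymphocytes, at 24.1, 118, 107 and 130.4 CPM, and *Txk*, a Tec kinase of T cells, at 15.1, 61.8, 51.8 and 76.9 CPM. *Lef1*, *Als2cl*, *Ehd3* and *Krba1* complete the 12, with 0.259, 0.20, 0.215 and 0.274 as their highest ratio to any set. The smallest ratios to low-ratio bins alone belonged to several kinds of gene. *Glycam1*, a ligand of high endothelial venules, was at 9.01, 519, 26.8 and 0.197 CPM, *Lyve1*, of lymphatic vessels, at 2.36, 176, 1.14 and 1.18 CPM, *Marco*, a macrophage scavenger receptor, at 1.12, 41.7, 1.26 and 0.148 CPM, and *Ighd*, the IgD chain, at 6.07, 174, 22.1 and 2.81 CPM. *Cxcr2*, *Grem1*, *Lyz1*, *Dapl1*, *Fcer2a*, *S1pr1*, *Fcmr* and *Vipr1* complete that list, with ratios from 0.0084 to 0.0611. In WT1101 11 of these 12 were below 10 CPM.

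Genes of antigen presentation and interferon response lay between the sets. The MHC class I list summed to 5129 CPM in the area, 9320.3 in low-ratio bins, 8199.9 in KO1308 and 3025 in WT1101, with *H2-K1* at 1352, 2765, 3048 and 727 CPM in that order. The MHC class II list summed to 4236, 5511, 4746 and 2024 CPM and the interferon list to 1924, 2300.1, 1502 and 773 CPM. All 3 sums were above WT1101; the class I and class II sums were below both other sets of KO bins, and the interferon sum lay between them. Against WT1101 the interferon list had 9 of 12 compared genes at least 2-fold higher and 0 lower (median log2 ratio 1.45). The nucleolar list had 4 of 16 compared genes at least 2-fold higher and 1 lower (median log2 ratio 0.39) against WT1101, with *Fbl*, the rRNA methylase fibrillarin, at 229.5, 129, 84.6 and 108 CPM and *Gnl3* at 182, 71.4, 85.4 and 74.3 CPM. Ribosomal protein genes took 14.3% of UMIs in the area, 19.9% in low-ratio bins, 11.3% in KO1308 and 10.3% in WT1101. The glycolysis list had a median log2 ratio of 0.43 to WT1101 and 0.37 to KO1308. Against low-ratio bins it was 0.08 and changed sign, to -0.019, with mitochondrial, ribosomal protein and immunoglobulin genes left out of the total. Of its genes, *Ldha*, lactate dehydrogenase A, was at 1412, 859, 713 and 985 CPM. The survival list had 1 of 9 compared genes at least 2-fold higher and 2 lower (median log2 ratio -0.29) against WT1101, with *Bcl2l1* at 31.1, 16.6, 94.7 and 112 CPM. The S-phase histone genes summed to 309, 161, 314 and 451 CPM.

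Markers of other cell types that a bin can hold were as follows, again in the order area, low-ratio bins, KO1308 and WT1101. The 6 B cell markers summed to 76.5, 891, 191 and 51.9 CPM, and the 6 plasma cell markers to 4733, 3495, 5682 and 2209 CPM, led by *Igkc* at 2958, 1619.5, 2880.5 and 959 CPM. B cell markers were thus well below low-ratio bins. The 6 macrophage markers summed to 782, 373, 621 and 404 CPM (*C1qa* the most abundant in the area), the 7 dendritic markers to 116, 119, 152 and 73.1 CPM and the 5 neutrophil and monocyte markers to 1376, 3346, 873 and 551 CPM, led by *Plac8* in the area. The 6 cytotoxic and natural killer markers summed to 611, 302, 233 and 142 CPM; *Gzma* made up most of the area's sum, at 425, 36.9, 135 and 95.7 CPM, while *Prf1* was at 3.42, 27.8, 8.41 and 3.08 CPM and the natural killer receptor *Ncr1* at 7 UMIs in the area. Macrophage and *Gzma* transcripts were higher in the area than in low-ratio bins, KO1308 or WT1101. The 6 adipocyte markers summed to 1143, 1335, 828 and 109 CPM and the 3 brown adipocyte markers to 97.6, 374, 79.9 and 3.45 CPM. The 6 fibroblast markers summed to 287, 416, 356 and 152 CPM, the 5 endothelial markers to 102, 712, 171 and 118 CPM, the 5 erythroid markers to 59.6, 11.3, 8.77 and 75.8 CPM, the 6 muscle markers to 69.1, 10.6, 36.9 and 5.39 CPM and the 8 medullary epithelial markers to 485, 959, 839 and 228 CPM. Adipocyte, fibroblast and muscle sums were above WT1101, and no list had all its genes at 0 in the area. Whether these cells contribute to the values of other genes was not tested.

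The genes of a chromosome tended to lie on one side. For each chromosome the median log2 ratio of its genes was taken less that of all genes. Against low-ratio bins, WT1101 and KO1308 in that order, the medians were 0.35, 0.37 and 0.34 for chromosome 14, 0.36, 0.34 and 0.23 for chromosome 5, 0.34, 0.26 and 0.44 for chromosome X, 0.25, 0.35 and 0.23 for chromosome 15, 0.30, 0.22 and 0.34 for chromosome 18, 0.26, 0.28 and 0.24 for chromosome 10 and 0.13, 0.20 and 0.19 for chromosome 7. They were -0.24, -0.36 and -0.22 for chromosome 13, -0.23, -0.30 and -0.27 for chromosome 17, -0.23, -0.27 and -0.26 for chromosome 9, -0.20, -0.28 and -0.25 for chromosome 11, -0.24, -0.23 and -0.18 for chromosome 3, -0.19, -0.24 and -0.22 for chromosome 6, -0.21, -0.21 and -0.19 for chromosome 1, -0.20, -0.27 and -0.16 for chromosome 16 and -0.16, -0.16 and -0.13 for chromosome 12. Chromosomes 2, 4, 8 and 19 were within 0.10 of 0 in all 3. The same chromosomes were high and the same low in the 3 comparisons, which share the area. Low-ratio bins and KO1308 differed less from WT1101. Low-ratio bins against WT1101 gave medians from -0.05 to 0.07 over the 20 chromosomes. KO1308 against WT1101 gave 0.13 for chromosome 15, 0.12 for chromosome 5, -0.22 for chromosome X and from -0.09 to 0.07 for the others. The bins of KO1134 between the limits, without lymph-node-like bins, were shifted in the area's direction. Against WT1101 they gave 0.27 for chromosome 14, 0.20 for chromosome 5, -0.28 for chromosome 13 and -0.18 for chromosome 17, each smaller than in the area.

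**Figure D4:**
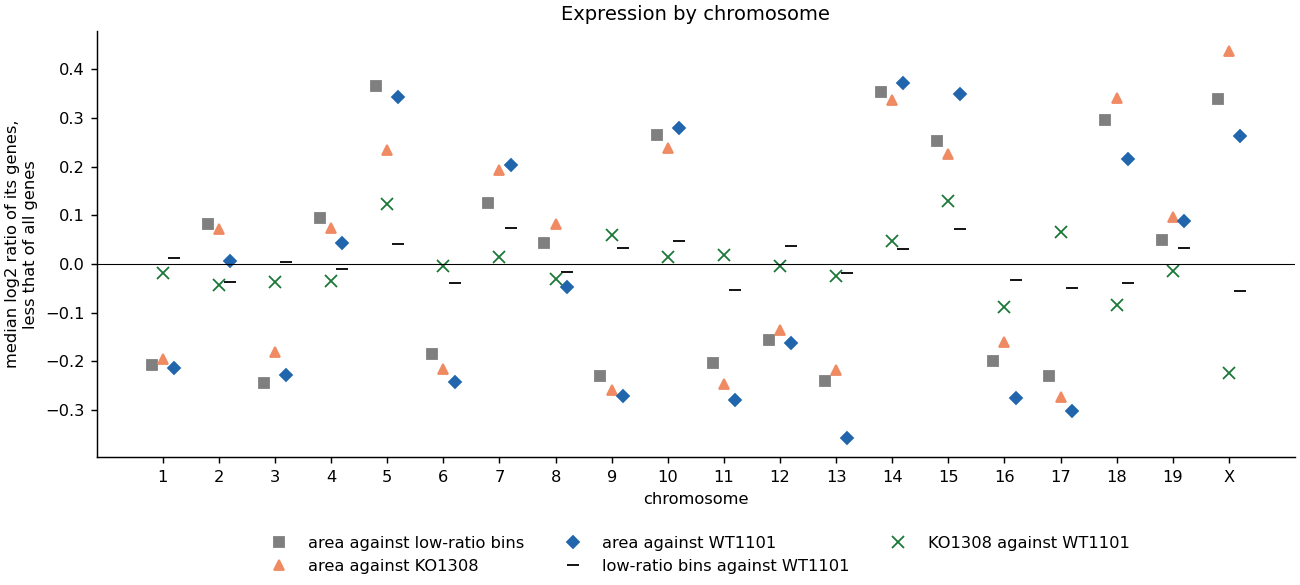
Median log2 ratio of the genes of each chromosome less that of all genes, for the area against low-ratio bins (squares), KO1308 (triangles) and WT1101 (diamonds), and for low-ratio bins (dashes) and KO1308 (crosses) against WT1101. The area's medians reached 0.44 and -0.36, while those of low-ratio bins against WT1101 lay between -0.05 and 0.07. The bins of KO1134 between the limits are not drawn.

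The difference was broad within each chromosome. Of the 403 genes of chromosome 14 compared with WT1101, 76.7% were above the median of all genes, as were 75.3% on chromosome 5 and 73.8% on chromosome 15, against 29% on chromosome 13 and 31.4% on chromosome 17. Each chromosome was cut into 3 parts with equal numbers of genes. All 18 parts of chromosomes 5, 10, 14, 15, 18 and X were above 0 in each of the 3 comparisons, and all 27 parts of chromosomes 1, 3, 6, 9, 11, 12, 13, 16 and 17 below 0, from -0.39 to 0.47. These chromosomes were chosen by their medians, so the parts describe evenness along them and are no separate evidence. In the 305 bins outside the largest patch the median against WT1101 was smaller, at 0.22 for chromosome 14, 0.09 for chromosome 18 and -0.20 for chromosome 13. *Xist*, transcribed from the inactive X chromosome, was at 72.7 CPM in the area, 28.3 in low-ratio bins, 36.9 in KO1308 and 31.2 in WT1101; it overlaps *Tsix* on the opposite strand.

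Levels were graded with the window ratio. KO1134 bins that were not lymph-node-like were put into 8 classes, with limits at 0.8, 1, 1.25, 1.5, 1.75, 2 and 2.25, of which the upper 5 are the area. *Tcrg-C1* was at 63.1, 249.9, 278, 316, 385, 464, 513 and 497 CPM from the lowest to the highest class. *Cdk6* was at 90.5, 390.2, 435, 480.1, 569, 694, 756 and 672 CPM, and *Cpa3* at 66.2, 283, 287, 291, 369, 459, 513 and 520.4 CPM. The largest single step of these 3 genes lay between the first and second class, below the area's limit, and they were higher again within the area. *Trap1a* was at 6.08, 8.03, 12.5, 10.6, 28.4, 47.2, 50.4 and 39.4 CPM, with its largest steps inside the area. *Cd8b1* ran the other way, at 287, 46.2, 50.2, 41.5, 28.1, 23.5, 17 and 11.2 CPM, and *Ccr7* at 240.3, 105, 82.1, 41.7, 28.1, 19.6, 14.6 and 11.2 CPM. *Trac* was at 551, 289, 245, 234, 224, 242, 237 and 216 CPM, flat above a ratio of 1. The median of chromosome 14 against WT1101 was 0.08, 0.24, 0.26, 0.31, 0.34, 0.38, 0.42 and 0.42, and that of chromosome 13 was -0.05, -0.24, -0.31, -0.30, -0.34, -0.33, -0.34 and -0.27. The bins of ratio 0.8 to 1.25, which are not members, lay between the lowest class and the area for *Tcrg-C1*, *Cdk6*, *Cpa3* and chromosome 14, and were within the area's range for chromosome 13 in one class and short of it in the other.

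**Figure D5:**
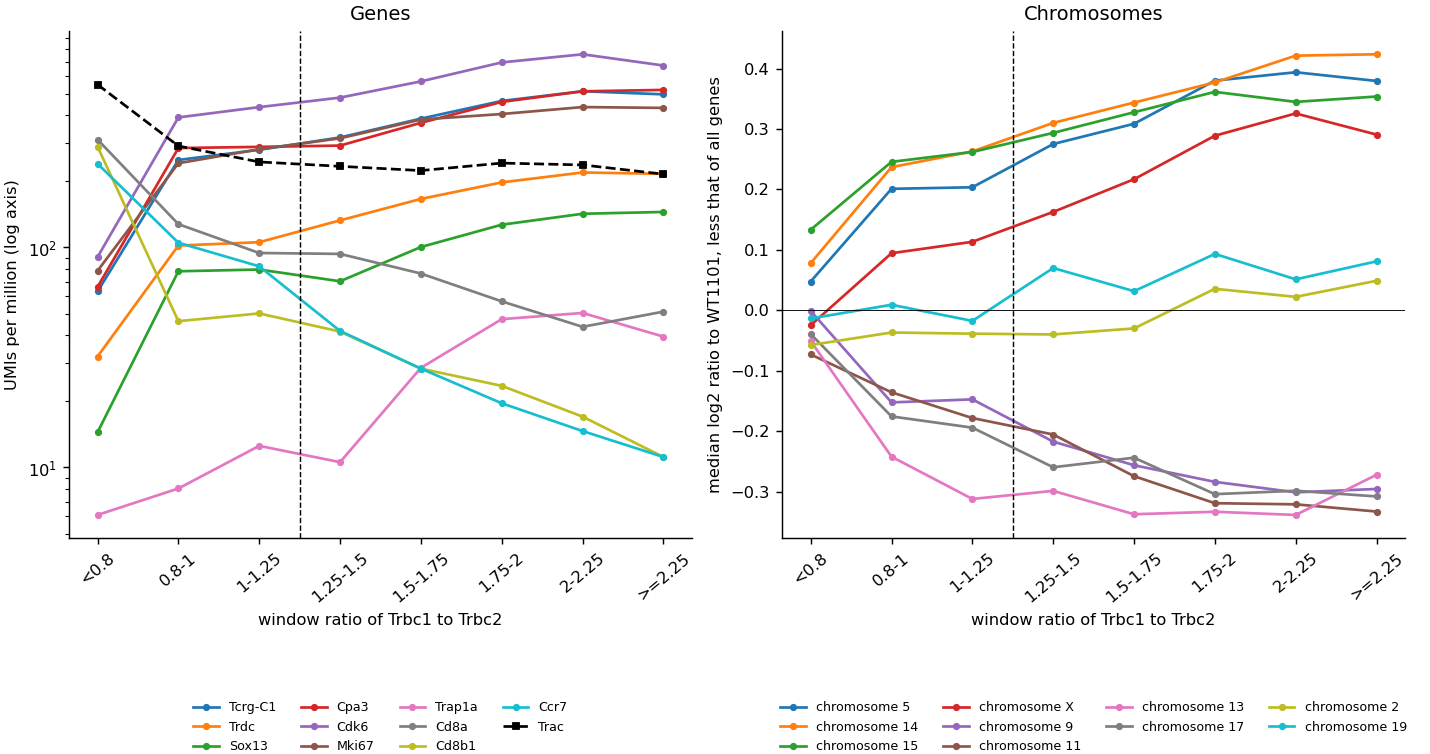
Left, level of 11 genes in CPM (log axis) in KO1134 bins by window ratio of *Trbc1* to *Trbc2*, without lymph-node-like bins; right, median log2 ratio to WT1101 of the genes of 10 chromosomes, less that of all genes, in the same classes. The dashed line is the limit of the area. The γ and δ genes, *Sox13*, *Cpa3* and *Cdk6* were higher and *Cd8b1* and *Ccr7* lower towards high ratios, and the chromosomes lay further apart.

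Along the length of the section the area was cut into 4 parts of 1697, 1747, 1686 and 1760 bins. *Trbc1* to *Trbc2* ratios were 2.01, 1.85, 1.65 and 1.63 from the uppermost to the lowermost. *Trdc* was at 232, 219, 125 and 121 CPM, *Sox13* at 151, 134, 84.5 and 58.9 CPM and *Cpa3* at 559, 482, 341 and 203 CPM, highest at the upper end. *Trap1a* was at 38.2, 40.5, 42.9 and 9.77 CPM and *Rag1* was at 42.7, 27, 32.9 and 79.6 CPM, respectively lowest and highest in the lowermost part. *Mki67*, at 452, 359, 323 and 398 CPM, and *Cdkn2a*, at 95.5, 79.1, 70.3 and 86.5 CPM, varied less. Adipocyte genes lay at the lower end: *Adipoq*, the adiponectin gene, was at 1.02, 0.218, 96.7 and 97.1 CPM. The chromosome 14 median against WT1101 was 0.43, 0.37, 0.30 and 0.34 in the 4 parts, and chromosome 13 gave -0.36, -0.33, -0.32 and -0.32.

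By distance to the nearest bin outside it, *Tcrg-C1* was at 282, 436 and 521 CPM within 100 µm, from 100 to 300 µm and beyond 300 µm, *Sox13* at 66.5, 113 and 148 CPM and *Cd8b1* at 39.4, 26.3 and 16.1 CPM. *Il2ra*, at 135, 175 and 165 CPM, and *Trap1a*, at 15.9, 44.6 and 38.9 CPM, were highest at the middle distance. The medullary chemokine gene *Ccl21a* was at 621, 214 and 85.8 CPM. The 305 bins outside the largest patch had a *Trbc1* to *Trbc2* ratio of 1.51, with *Tcrg-C1* at 254 and *Sox13* at 57.5 CPM, against 428 and 114 in it. These patches were not alike. The second, of 118 bins, had *Tcrg-C1* at 377 CPM, while a patch of 44 bins had it at 31.4 and the adipocyte protease *Cfd* at 4859.5 CPM from 31896 UMIs in all.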

How the data were processed

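Spatial transcriptomes of thymus sections were made by the authors on BMKMANU S1000 slides, processed with BSTMatrix, which aligns with STAR, to GRCm38 per the submitters' notes, and deposited as raw counts of UMIs per gene and spot with spot positions. Spots were summed here into 27 µm bins with Python 3.11.15, numpy 2.4.6, scipy 1.17.1 and pandas 2.3.3, and figures were drawn with matplotlib 3.10.9. The authors' clusters and their step of removing tissue folds were not used. Window sums were taken over kept bins. UMIs were summed per set, and CPM was given with exact Poisson intervals, ratios with exact conditional binomial intervals and shares with Clopper-Pearson intervals, all at 95%. No model was fitted, and a gene at least 2-fold different was counted as higher or lower. Whole sections held 31237062 (KO1134), 21089885 (KO1308) and 41581477 (WT1101) UMIs. Genes named were the list members, the leading receptor segments, the 12 with the largest and smallest ratio to low-ratio bins, and the 12 furthest from all 3 sets in each direction, without Gm and Rik genes. Further genes, a Gm and a Rik gene among them, were named after their values were seen. The area and all lists were chosen with earlier results of these data known. Some genes of the lists are not reported here. Positions came from GENCODE M21, which matched 99.9% of gene identifiers. Whether counting used strand is not given in the sources used here. Alternatives varied the window, limits, bin width, filters, tissue, depth and total. The counting was tested on simulated data.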

Additional observations from a re-analysis of the deposited data

How the results depend on the processing

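No paired analysis was possible because each set of bins came from 1 section, and leaving out a replicate would leave none. Of 308 main values recomputed, 260 stayed within a set margin (1.5 times for a count, 0.1 for a chromosome median, the interval for a share) and 48 did not. They were counts of genes and of member bins, chromosome medians and segment shares. Of the 195 chromosome medians 0 changed sign, which counts and shares cannot do. A further set held log2 ratios of single genes, passing bins of the other sections and the mitosis and replication count. Of that set 171 stayed within their margin and 140 did not. The area had 1818 bins at a ratio of at least 2, 11509 with 20 µm bins and 1969 with 50 µm bins, the last 2 covering 4.6 and 4.92 mm2. Over the alternatives for choosing bins, 0 to 48 bins passed in KO1308 and 0 to 27 in WT1101. The share of the *Trav6-7* copies was 66.5% at a ratio of at least 2 and 76.9% without the largest patch. Genes at least 2-fold higher and lower than in low-ratio bins numbered 3071 higher and 976 lower in medulla-rich windows, where the area had only 23 bins. With a mean of at least 50 CPM they were 431 higher and 255 lower, 237 higher and 384 lower against WT1101 and 163 higher and 273 lower against KO1308, of fewer genes compared. Without the largest patch they were 1495 higher and 1704 lower against WT1101 and 701 higher and 1634 lower against KO1308. In medulla-rich windows *Cpa3* had a log2 ratio of 0.05 to low-ratio bins, against 3.78 for all bins and 2.65 without lymph-node-like bins. Without them *Sox13* was at 2.96 in place of 3.94, *Cdk6* at 2.79 in place of 3.58 and *Trdc* at 2.5 in place of 3.19. Over all alternatives the log2 ratio of *Cdk6* to low-ratio bins ran from 1.93 to 3.85. Without the largest patch, log2 ratios to WT1101 and KO1308 were 0.41 and 0.91 for *Trdc*, 2.40 and 1.63 for *Tcrg-C1*, 1.25 and 1.49 for *Cdk6*, 3.54 and 2.85 for *Sox13* and 5.25 and 5.44 for *Cpa3*, each over 1.5 times smaller as a fold. In medulla-rich windows the log2 ratio of *Trdc* to low-ratio bins was 0.92. In cortex-rich windows that of *Cd8a* was -1.02 in place of -2.07 and that of *Cd8b1* -1.94 in place of -3.24. Over all alternatives that of *Cd8b1* ran from -4.07 to -1.66.

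Chromosome medians were smaller in the bins outside the largest patch, an alternative chosen after the data were seen. With the chromosome in brackets, they were 0.18 (5), 0.061 (10), 0.20 (14), 0.15 (18), 0.13 (X), -0.086 (1), -0.084 (11), -0.052 (16) against low-ratio bins, 0.15 (5), 0.087 (10), 0.22 (14), 0.088 (18), 0.083 (X), -0.041 (1), -0.097 (3), -0.099 (6), -0.17 (9), -0.16 (11), -0.20 (13), -0.19 (17) against WT1101 and 0.050 (5), 0.10 (10), 0.18 (14), 0.18 (18), 0.28 (X), -0.092 (1), -0.096 (6), -0.057 (16) against KO1308. At 50 CPM or more, chromosome X was 0.23 against low-ratio bins and chromosome 6 -0.36 against KO1308. Without the genes at least 2-fold higher or lower, also chosen after the data were seen, chromosome X was 0.24 against low-ratio bins. The cause of these differences was not tested, and the bins outside the largest patch hold 626394 UMIs of the 16982626 of the area. Age, permeabilisation and slide cannot be told apart from section, and 1 section of each kind gives no measure of how far mice differ.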

Other observations

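Outside the area, a few genes were abundant in 1 section and nearly without UMIs in another. *Ndufb1-ps* had 9263 UMIs in KO1308 (439 CPM) and 0 in both KO1134 and WT1101. *Gm26631* had 8825 UMIs in KO1308 (418 CPM) and 0 in the other sections. The former overlaps *Cpsf2* and the latter *Cox5a* and *Fam219b*, in each case on the opposite strand. *Ucp1*, the uncoupling protein of brown fat, had 1267 UMIs in KO1134, 2940 in KO1308 and 1 in WT1101. These were the genes with at least 100 CPM in one section and at most 3 UMIs in another. *Wnk4*, a kinase gene chosen after its values were seen, was at 509 CPM in the area, 138 in low-ratio bins, 7.39 in KO1308 and 186 in WT1101.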
